A study of Mus musculus with 8 samples.

Results

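The genes of the proteasome were compared between the femoral shafts of mice lacking Girk3 and of wild-type mice. The members were all protein-coding genes of the count table whose GENCODE M21 symbol starts with Psm, a letter from a to g and a digit. This rule gave 50 of the 49315 gene rows, of which 49 passed the low-count filter and 1, Psmb11, did not. It covers the core particle (Psma and Psmb), the regulatory particle (Psmc and Psmd), the activators (Psme), the inhibitor (Psmf) and the assembly chaperones (Psmg). It also takes in Psmc3ip, which is named after a subunit but encodes a meiotic recombination factor and no part of the proteasome. Sem1, Adrm1 and the maturation factor Pomp have other symbols and were read as neighbours of the members.

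KO bone came from 4 male C57BL6 mice aged 24 weeks and homozygous for a Girk3 deletion, and WT bone from 4 male C57BL6 mice aged 24 weeks without it. The deleted gene, Kcnj9, encodes Girk3, which belongs to a family of potassium channels opened by G proteins. Bulk RNA was taken from the bone shaft after the ends had been cut off and the marrow flushed out, and each library was taken as 1 mouse. Neither the deleted stretch of the gene nor the kinship of the WT mice is given in the labels.

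The proteasome degrades proteins that carry ubiquitin chains. Its barrel-shaped core particle is made of rings of alpha and beta subunits, and Psmb5, Psmb6 and Psmb7 hold the proteolytic sites. The regulatory particle caps the barrel, binds and removes ubiquitin and uses a ring of ATPases to unfold the substrate. In cells of the immune system, or under interferon, Psmb8, Psmb9 and Psmb10 take the place of the catalytic subunits and form the immunoproteasome. In skeletal muscle the proteasome breaks down myofibrillar proteins during atrophy, and in osteoblasts it turns over Runx2 and components of Wnt signalling.

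The promoters of 5 members are shown because their genes represent the constitutive and the interferon-inducible arms of the family, and because each window holds a short motif named below. The windows reach from 250 bases before to 50 bases after the RefSeq start on GRCm38.p6. Capitals mark the matches of 4 motifs, searched on both strands: TGACNNNGC, the core of the antioxidant response element through which Nfe2l1 acts on proteasome genes; CCAAT; GAAANN followed by GAAA, an interferon-stimulated response element core; and TTCNNNGAA, the interferon gamma activated sequence. The Psmb5 window lies at chr14:54617946-54618245, minus strand. That of Psmb6 lies at chr11:70525107-70525406, plus strand. Those of the immunoproteasome genes are at chr17:34197945-34198244, plus strand for Psmb8, and at chr17:34187281-34187580, minus strand for Psmb9. The Psme1 window is at chr14:55578244-55578543, plus strand.
Psmb5: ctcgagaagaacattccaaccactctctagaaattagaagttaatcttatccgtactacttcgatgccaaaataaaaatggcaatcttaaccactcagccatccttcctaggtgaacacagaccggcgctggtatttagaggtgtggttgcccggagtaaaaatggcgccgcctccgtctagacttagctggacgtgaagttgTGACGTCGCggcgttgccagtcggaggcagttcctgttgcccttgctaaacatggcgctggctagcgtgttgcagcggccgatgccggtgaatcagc
Psmb6: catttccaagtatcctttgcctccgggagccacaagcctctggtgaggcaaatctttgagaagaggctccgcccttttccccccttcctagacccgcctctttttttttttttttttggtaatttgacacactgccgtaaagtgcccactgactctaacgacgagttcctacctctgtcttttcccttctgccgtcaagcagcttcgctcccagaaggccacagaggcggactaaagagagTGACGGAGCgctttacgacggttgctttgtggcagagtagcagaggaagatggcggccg
Psmb8: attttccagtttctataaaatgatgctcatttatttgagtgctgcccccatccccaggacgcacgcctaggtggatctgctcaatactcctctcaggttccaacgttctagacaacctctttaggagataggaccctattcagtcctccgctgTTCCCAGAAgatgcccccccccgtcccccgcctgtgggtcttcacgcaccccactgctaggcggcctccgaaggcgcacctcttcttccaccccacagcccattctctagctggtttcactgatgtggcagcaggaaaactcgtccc
Psmb9: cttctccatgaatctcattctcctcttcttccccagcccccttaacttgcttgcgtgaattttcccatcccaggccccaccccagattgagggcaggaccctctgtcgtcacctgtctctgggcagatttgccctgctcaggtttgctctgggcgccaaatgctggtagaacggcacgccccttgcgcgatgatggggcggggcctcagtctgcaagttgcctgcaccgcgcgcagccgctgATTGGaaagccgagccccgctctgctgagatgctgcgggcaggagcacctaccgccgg
Psme1: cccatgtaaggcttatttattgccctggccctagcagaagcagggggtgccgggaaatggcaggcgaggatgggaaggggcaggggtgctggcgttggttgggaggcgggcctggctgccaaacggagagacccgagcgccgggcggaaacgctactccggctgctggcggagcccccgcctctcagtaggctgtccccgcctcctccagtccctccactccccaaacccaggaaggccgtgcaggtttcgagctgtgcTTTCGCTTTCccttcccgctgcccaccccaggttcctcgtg
The capitals mark 1 antioxidant response element core each in Psmb5 and Psmb6, 1 interferon gamma activated sequence in Psmb8, 1 CCAAT on the opposite strand in Psmb9 and 1 interferon-stimulated response element core on the opposite strand in Psme1. RefSeq windows were found for 42 of the 50 members, 45 windows in all. TGACNNNGC stood in 13.3% of them, against 12.4% of all 32851 windows. CCAAT stood in 33.3% against 37.4%, the interferon-stimulated response element core in 11.1% against 3.44% and TTCNNNGAA in 6.67% against 8.30%. The interferon-stimulated core stood in 5 member windows, those of Psmb3, Psmd4, Psmd9, Psme1 and Psmg4. The windows of Psmb8, Psmb9, Psmb10 and Psme2 held none. A match describes the letters of the window and is no evidence of binding.

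Library totals ranged from 30937465 to 32348592 counts in KO and from 30087749 to 36553713 in WT, and member genes took 0.458 to 0.530% of them in KO and 0.398 to 0.444% in WT. Kcnj9 had 0, 8, 4 and 7 counts in KO replicates 1 to 4, against 7, 6, 6 and 23 in WT replicates 1 to 4, too few to check the genotypes. KO replicate 4 and WT replicate 4 were the extremes of the leading principal component (scores of 60.5 and -53.5, with 33.5% of the variance). These libraries also differed in what they held besides bone. The summed level of 16 skeletal muscle markers was 200782 CPM in KO replicate 4 and 119122 to 152176 CPM in the other KO libraries, against 75527 CPM in WT replicate 4 and 127057 to 141471 CPM in the other WT libraries. Marrow leukocyte markers (19 genes) summed to 1270 CPM in KO replicate 4 and 4934 to 9182 CPM in the other KO libraries, against 7271 CPM in WT replicate 4 and 2230 to 4626 CPM in the other WT libraries. All 13 osteoblast and osteocyte markers were detected, with sums of 10551 to 18893 CPM in KO and 9676 to 22425 CPM in WT. In such mixed tissue, fewer cells of a type and less RNA per cell cannot be told apart.

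Most proteasome genes had a higher mean level in KO than in WT bone, by small amounts, and no member passed the test over all genes. CPM are read counts scaled to a common library size after TMM normalization, and a gene was called at a Benjamini-Hochberg adjusted p under 0.05 in edgeR's quasi-likelihood test. Of the 49 members tested, 43 were above and 6 below 0 in log2 fold change. The members' median was 0.34, and they ranged from -0.25 to 0.55. The median over all 17450 genes tested was -0.012, and 48.6% of them were positive. edgeR called 0 members, against 0.0115% of all genes. At an unadjusted p under 0.05, 28 members were higher and 0 lower in KO, where 9.59% of all genes were higher and 8.59% lower. DESeq2 called 12 members, all higher (3.9% of the genes DESeq2 tested were called higher and 2.55% lower). When tested on simulated data of this design DESeq2 exceeded its nominal rate of false calls. Its adjusted p are therefore given beside those of edgeR and do not replace them. In the same simulated data edgeR missed most genes given the smallest change, which was larger than that of any member. A lack of edgeR calls thus does not show equal levels. limma-voom called 11, all higher (2.41% of all genes were called higher and 1.63% lower). Both DESeq2 and limma-voom called 9 members, and the share of all genes called by both was not computed. Every KO library lay above every WT library for 23 members and below for 0, against 7.33 and 5.78% of all genes.

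**Figure D1:**
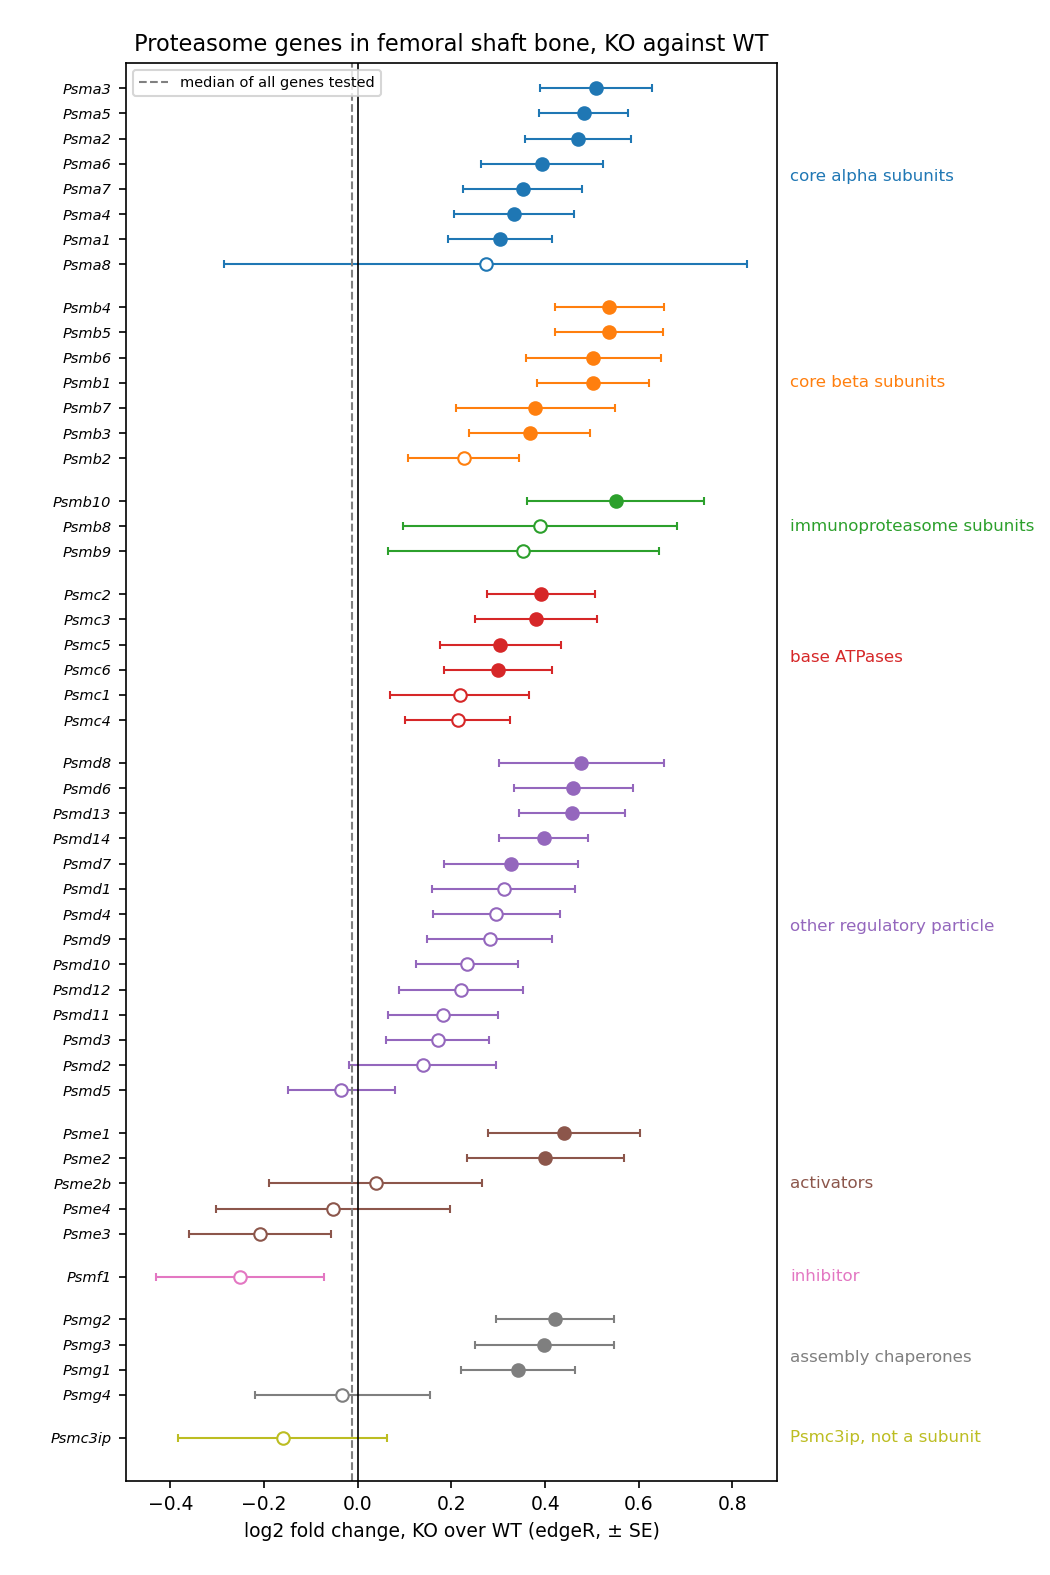
Log2 fold change of KO over WT with its standard error (horizontal axis, edgeR, n = 4 libraries per group) for the 49 members tested, grouped by role. Filled points have an unadjusted p under 0.05, open points do not, and the dashed line is the median of all genes tested (-0.012). All 28 filled points lie right of 0, and 6 open points lie left of it.

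The alpha subunits form the outer rings of the core particle and gate its entrance. Each of the 7 constitutive alpha genes was higher in KO at an unadjusted edgeR p under 0.05, where 9.59% of all genes were. Psma5 (ENSMUSG00000068749, chromosome 3, 108256926 to 108279974, GRCm38, plus strand) had the smallest p of all members. It stood at 68.6, 62.1, 64.8 and 63.8 CPM in KO replicates 1 to 4, against 45.4, 44.4, 50.3 and 45.4 CPM in WT replicates 1 to 4. The lowest KO library thus lay above the highest WT library, with a mean of 64.8 ± 2.74 CPM in KO and 46.4 ± 2.65 CPM in WT (SD, n = 4 each) and a log2 fold change of 0.48 (SE 0.095, adjusted p = 0.0728 in edgeR). Psma3 was at 190.2, 160.3, 178 and 174 CPM in KO replicates 1 to 4, against 121, 125, 136 and 111 CPM in WT replicates 1 to 4. Psma2 was at 108, 86.3, 93.2 and 90.6 CPM in KO replicates 1 to 4, against 62.3, 66.3, 71.8 and 72.4 CPM in WT replicates 1 to 4. Neither gene overlapped between the groups, and their log2 fold changes were 0.51 (SE 0.12) for Psma3 and 0.47 (SE 0.11) for Psma2, with edgeR adjusted p of 0.0906 and 0.0914. DESeq2 and limma-voom called Psma5, Psma3 and Psma2, with DESeq2 adjusted p of 0.000254, 0.00141 and 0.00487. Psma8, the alpha subunit of the testis proteasome, had 18, 32, 28 and 2 counts in KO replicates 1 to 4, against 13, 11, 17 and 33 in WT replicates 1 to 4. Its low counts overlapped, and its log2 fold change of 0.27 had an SE of 0.56.

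The beta subunits form the inner rings, and 3 of them are proteases. Psmb5 (ENSMUSG00000022193, chromosome 14, 54614119 to 54618022, GRCm38, minus strand), the chymotrypsin-like subunit, stood at 149.8, 125, 132 and 138 CPM in KO replicates 1 to 4, against 89.7, 98.5, 101 and 86.1 CPM in WT replicates 1 to 4. The groups did not overlap, and the log2 fold change was 0.54 (SE 0.11, adjusted p = 0.0769 in edgeR, DESeq2 adjusted p = 0.000562). Psmb6, the caspase-like subunit, was at 188, 128, 149 and 172 CPM in KO replicates 1 to 4, against 103, 118, 121 and 107 CPM in WT replicates 1 to 4. It too was higher in every KO library, with a log2 fold change of 0.50 (SE 0.14, adjusted p = 0.123 in edgeR). Psmb7, the trypsin-like subunit, was at 172, 136, 173 and 217 CPM in KO replicates 1 to 4, against 125, 141, 158 and 112 CPM in WT replicates 1 to 4. Here KO replicate 2 lay among the WT libraries, and the log2 fold change was 0.38 (SE 0.17, adjusted p = 0.271 in edgeR).

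Among the non-catalytic beta subunits, Psmb4 stood at 210.2, 170.5, 178 and 192 CPM in KO replicates 1 to 4, against 126, 126, 132 and 133 CPM in WT replicates 1 to 4. All WT libraries lay below every KO library. The fitted log2 difference was 0.54 (SE 0.12, adjusted p = 0.0790 in edgeR, DESeq2 adjusted p = 0.000159). Psmb1 was at 145, 109.9, 123 and 123 CPM in KO replicates 1 to 4, against 82.3, 87.9, 93.4 and 90.02 CPM in WT replicates 1 to 4, also without overlap, with a log2 fold change of 0.50 (SE 0.12). Psmb3 had 104 ± 15.7 CPM in KO and 80.9 ± 4.53 CPM in WT (SD, n = 4 each) and Psmb2 52.9 ± 7.04 CPM in KO and 45.3 ± 2.71 CPM in WT, both with overlapping groups, and Psmb2 had the smallest log2 fold change of the beta subunits tested (0.23, SE 0.12). Psmb11, the thymus-specific catalytic subunit, had 0 counts in the 4 KO libraries and 1, 0, 0 and 1 in WT replicates 1 to 4. A count of 0 in KO allows up to 0.0243 CPM, taking 3 counts over the 4 KO libraries, for counting error only. Over the 15 core subunits tested without the immunoproteasome subunits, the median log2 fold change was 0.39, and 13 had an unadjusted p under 0.05, all higher. Over all genes tested the median was -0.012, and 9.59% were higher at that p.

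**Figure D2:**
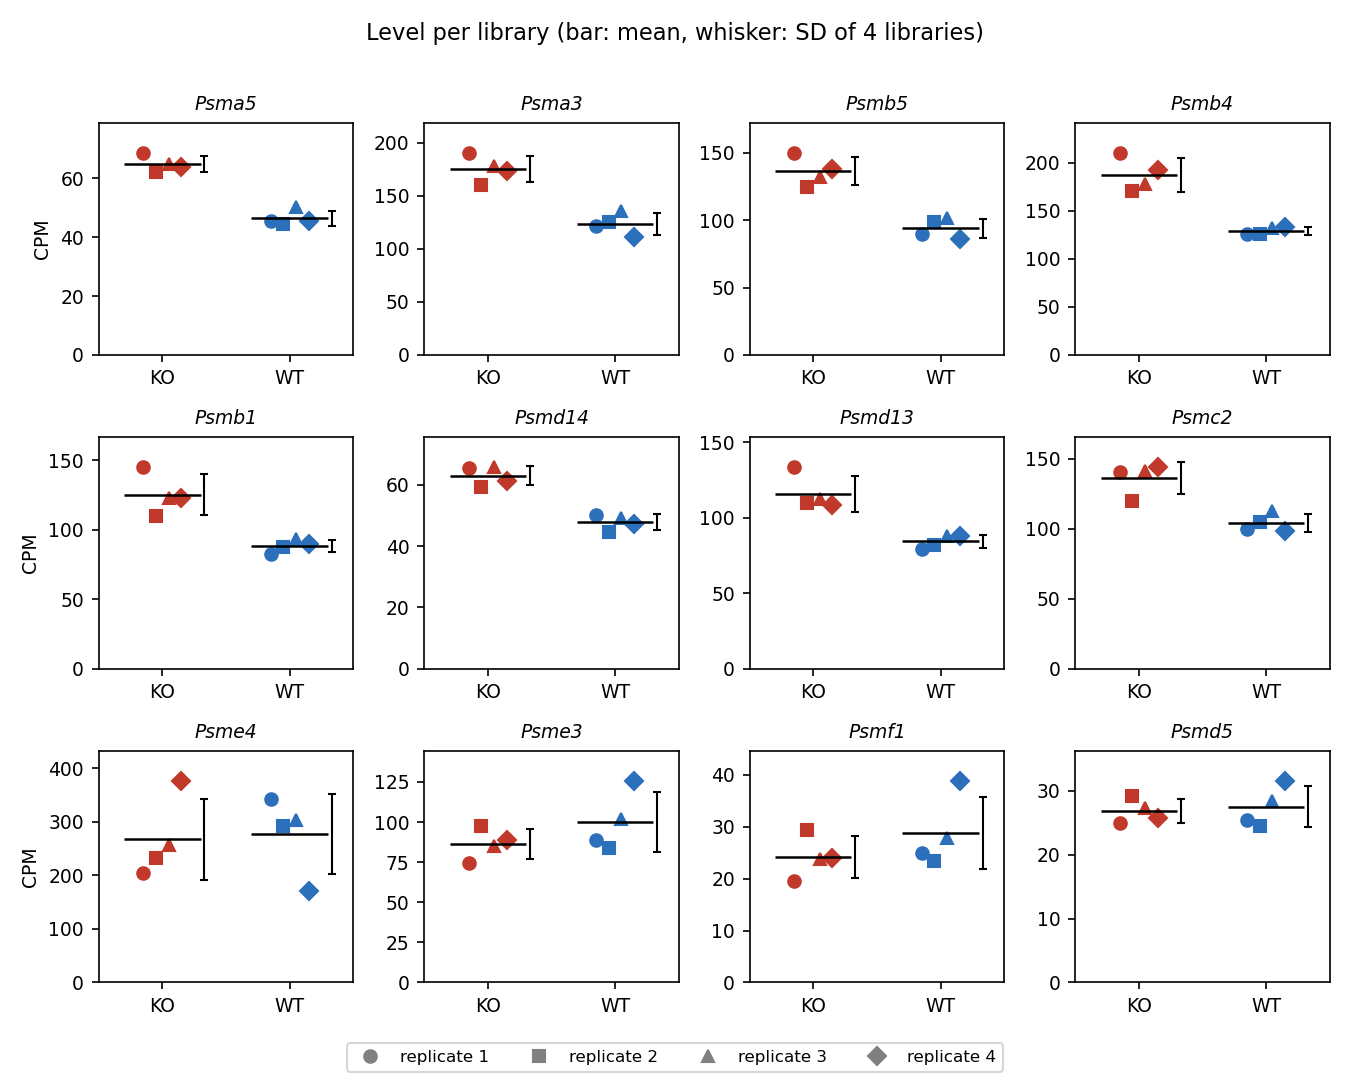
Level of 12 members in each library (CPM, vertical axes from 0), KO left and WT right, with replicates 1 to 4 as different markers, the group mean as a bar and the SD as a whisker (n = 4 each). In the upper 8 panels every KO library lies above every WT library, and in the lowest row the groups overlap, with KO replicate 4 highest for Psme4 (377 CPM) and WT replicate 4 lowest (171 CPM).

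The transcripts of the core subunits were not equally abundant. Per kilobase of the principal transcript, Psmb6 was the highest of the 14 constitutive core genes, with a level of 199 ± 33.1 CPM per kilobase in KO and 141 ± 10.7 in WT (SD, n = 4 each). Psma2 was the lowest, at 32.5 ± 3.22 CPM per kilobase in KO and 23.4 ± 1.65 in WT. Psmb4 had 159 ± 14.8, and Psmb5 152 ± 11.6 CPM per kilobase in KO, against 109 ± 3.39 and 104 ± 8.02 in WT, so these neighbours in the order did not differ beyond their spread. Among the catalytic subunits of the immunoproteasome, Psmb8 had 19.9 ± 6.69 CPM per kilobase in KO and 15.1 ± 5.71 in WT. The proteins occur in equal numbers in the particle, and these levels concern transcripts only. They also rest on 1 transcript length per gene.

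The immunoproteasome subunits had lower levels per kilobase of transcript than the subunits they replace and their groups overlapped. Psmb8 (ENSMUSG00000024338, chromosome 17, 34197721 to 34201454, plus strand) was at 40.5, 26.6, 42.3 and 19.8 CPM in KO replicates 1 to 4, against 18.0, 24.8, 18.1 and 37.8 CPM in WT replicates 1 to 4. Psmb9 (ENSMUSG00000096727, chromosome 17, 34181987 to 34187764, minus strand), its neighbour in the major histocompatibility complex, was at 28.1, 23.7, 27.6 and 12.9 CPM in KO replicates 1 to 4, against 14.3, 18.8, 12.1 and 27.0 CPM in WT replicates 1 to 4. Both were lowest among KO libraries in replicate 4 and highest among WT libraries in replicate 4, so the groups overlapped through these mice. Psmb10, on chromosome 8, was at 50.2, 32.6, 38.0 and 26.8 CPM in KO replicates 1 to 4, against 22.1, 25.1, 23.1 and 30.5 CPM in WT replicates 1 to 4. Log2 fold changes were 0.39 (SE 0.29) for Psmb8, 0.35 (SE 0.29) for Psmb9 and 0.55 (SE 0.19) for Psmb10, with edgeR adjusted p of 0.524, 0.565 and 0.170. Without KO replicate 4 and WT replicate 4 the log2 fold changes were 0.85, 0.81 and 0.78, with edgeR adjusted p of 0.0520, 0.0412 and 0.0401, so that Psmb9 and Psmb10 were called higher in KO among 5 members called (1.61% of all genes were called higher).

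Marrow leukocyte markers also set KO replicate 4 and WT replicate 4 apart. The mean of the 3 subunits was 5.27, 4.78, 5.15 and 4.25 log2 CPM in KO replicates 1 to 4, against 4.16, 4.51, 4.11 and 4.98 log2 CPM in WT replicates 1 to 4. The mean of the 19 marrow markers was 7.22, 6.61, 7.09 and 5.23 log2 CPM in KO replicates 1 to 4, against 6.21, 6.77, 5.84 and 7.31 log2 CPM in WT replicates 1 to 4. By this mean KO replicate 4 was the lowest of all libraries and WT replicate 4 the highest, while by summed CPM KO replicates 1 and 3 lay above WT replicate 4. Of the 19 markers 0 were at 0 in all libraries, and 0 were higher and 2 lower in KO at an unadjusted edgeR p under 0.05. Of all genes 9.59% were higher and 8.59% lower at that p. The markers' part in the subunits' levels was not tested beyond the covariate fit. With the marrow score as a covariate edgeR called Psmb10 (log2 fold change 0.53, adjusted p = 0.0348), but neither Psmb8 (adjusted p = 0.0935) nor Psmb9 (0.0694), and 2.79% of all genes were called higher. With the muscle score as a covariate edgeR called all 3, with log2 fold changes of 0.83 for Psmb8, 0.80 for Psmb9 and 0.78 for Psmb10 and adjusted p of 0.0225, 0.0153 and 0.0130 (4.98% of all genes were called higher). The constitutive core genes did not single out these libraries. Their mean was 7.05, 6.69, 6.86 and 6.93 log2 CPM in KO replicates 1 to 4, against 6.40, 6.47, 6.58 and 6.42 log2 CPM in WT replicates 1 to 4, without overlap and with KO higher.

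**Figure D3:**
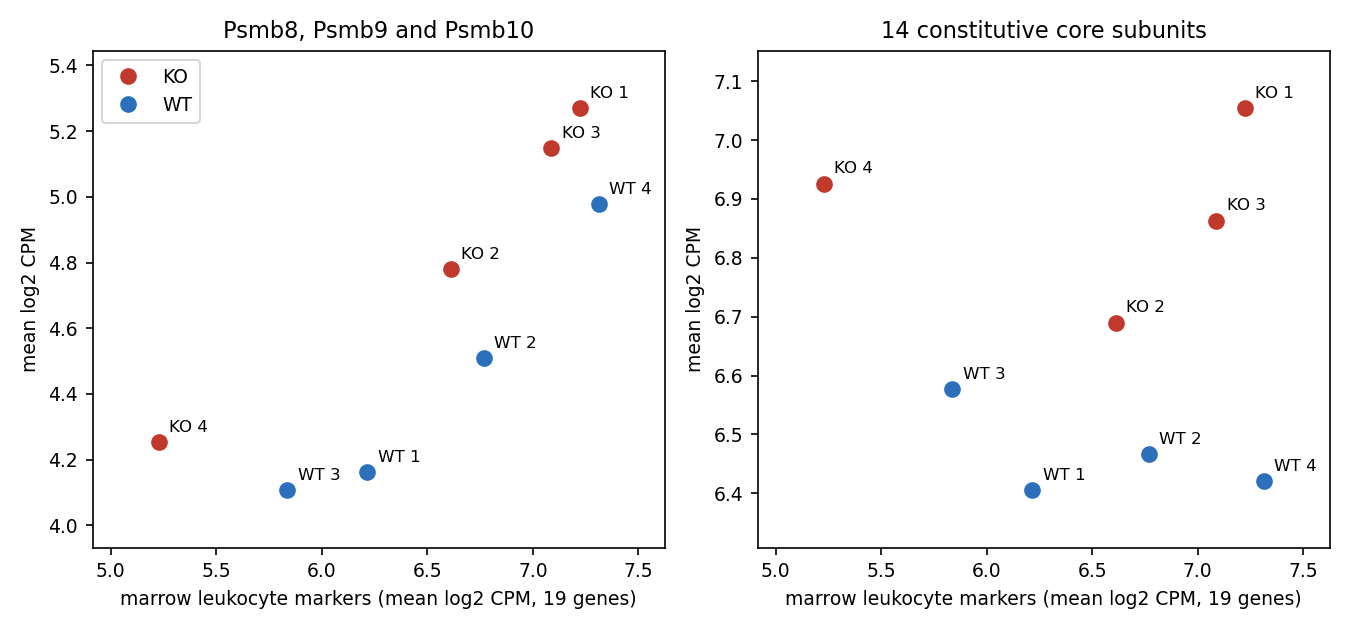
Mean log2 CPM of Psmb8, Psmb9 and Psmb10 (left) and of 14 constitutive core genes (right) against the mean log2 CPM of 19 marrow leukocyte markers, 1 point per library, KO red and WT blue, numbered by replicate. On the left KO 4 (4.25) sits among the WT libraries and WT 4 (4.98) among the KO libraries, and on the right all KO points lie above all WT points.

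Each immunoproteasome subunit replaces 1 constitutive subunit, so their ratio within a library was compared. It is free of the scaling between libraries. The ratio of Psmb8 to Psmb5, per base of transcript, was 0.149, 0.118, 0.177 and 0.0793 in KO replicates 1 to 4, against 0.111, 0.139, 0.0985 and 0.242 in WT replicates 1 to 4. The ratio of Psmb9 to Psmb6 was 0.0879 ± 0.0308 in KO and 0.0960 ± 0.0381 in WT, and that of Psmb10 to Psmb7 was 0.194 ± 0.0621 in KO and 0.171 ± 0.0484 in WT (SD, n = 4 each). For all 3 ratios the groups overlapped, with the lowest KO value in KO replicate 4 and the highest WT value in WT replicate 4. The log2 differences of KO minus WT were -0.14, -0.13 and 0.15, within the SD of either group (0.38 to 0.62). Two-sided exact permutation tests over 70 arrangements gave p = 0.743, 0.771 and 0.629, each 0.771 when adjusted over the 3 ratios. Without both replicates 4 the differences were 0.34, 0.41 and 0.58.

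**Figure D4:**
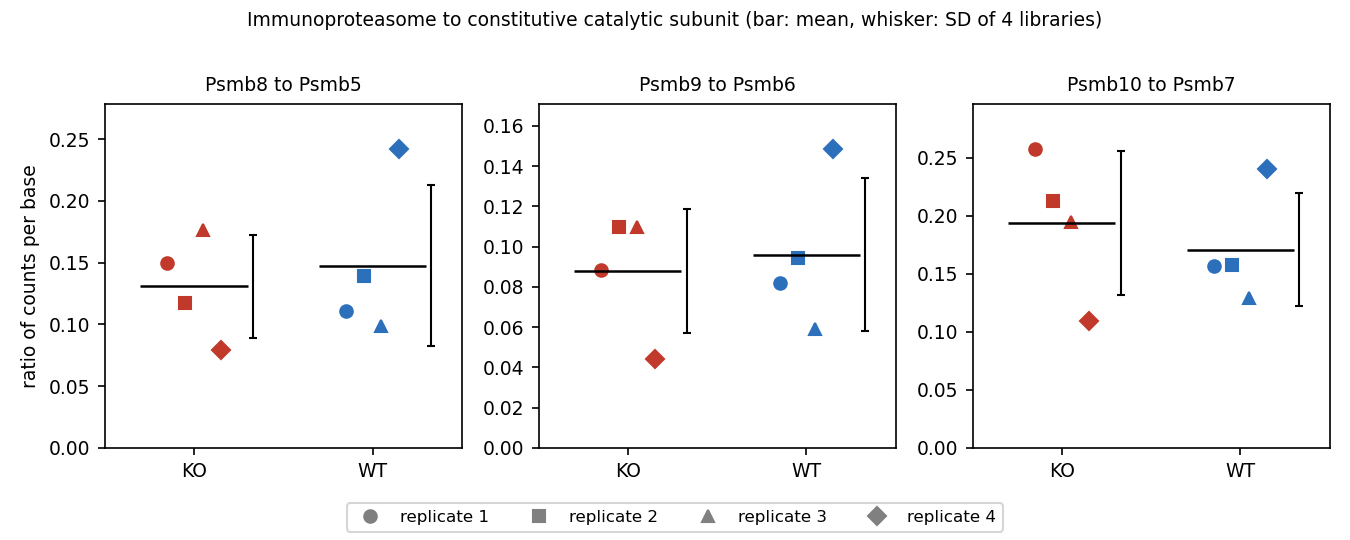
Ratio of each immunoproteasome subunit to the constitutive subunit it replaces, in counts per base of the principal transcript (vertical axes from 0), KO left and WT right, with replicates as markers, means as bars and SD as whiskers (n = 4 each). The ratios lie between 0.0442 and 0.258, and KO replicate 4 is the lowest and WT replicate 4 the highest or second highest of all 8 libraries in each panel.

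The regulatory particle had mostly positive log2 fold changes as well. It was counted here as the 20 Psmc and Psmd genes without Psmc3ip, which include the assembly chaperone genes Psmd5, Psmd9 and Psmd10. Of these, 19 were above 0 in log2 fold change, against 48.6% of all genes, and the median was 0.30. At an unadjusted p under 0.05, 9 were higher and 0 lower, where 9.59% of all genes were higher. The mean of the 20 genes was 6.78, 6.63, 6.73 and 6.89 log2 CPM in KO replicates 1 to 4. In WT replicates 1 to 4 it was 6.47, 6.46, 6.59 and 6.38 log2 CPM. KO replicate 4 was thus the highest and WT replicate 4 the lowest library, as for the summed muscle markers. Without both replicates 4 the median log2 fold change was 0.18. The cause was not tested. The base ATPases, which unfold substrates, had log2 fold changes between 0.21 and 0.39. Psmc2 was at 140.2, 119, 141 and 144 CPM in KO replicates 1 to 4, against 99.7, 105, 113 and 98.2 CPM in WT replicates 1 to 4. Psmc3 had 205 ± 20.9 CPM in KO and 158 ± 14.3 CPM in WT (SD, n = 4 each). Both were higher in every KO library, with log2 fold changes of 0.39 (SE 0.11) and 0.38 (SE 0.13). DESeq2 called both genes, while edgeR did not (adjusted p = 0.128 and 0.169). Psmc6 had a log2 fold change of 0.30 (SE 0.11) without overlap of the groups.

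Psmd14, the lid enzyme that cuts ubiquitin chains off substrates, was at 65.6, 59.4, 65.8 and 61.2 CPM in KO replicates 1 to 4, against 50.2, 44.6, 49.3 and 47.3 CPM in WT replicates 1 to 4. The lowest KO library exceeded the highest WT library by more than the range within either group, and the log2 fold change was 0.40 (SE 0.096, adjusted p = 0.0914 in edgeR, DESeq2 adjusted p = 0.00462). The lid subunit Psmd13 was at 134, 109.5, 113 and 108 CPM in KO replicates 1 to 4, against 79.6, 82.2, 88.0 and 88.2 CPM in WT replicates 1 to 4. Psmd6, another lid subunit, was at 120.1, 112, 137 and 129 CPM in KO replicates 1 to 4, against 90.7, 91.7, 103 and 76.5 CPM in WT replicates 1 to 4. Neither overlapped between the groups, with log2 fold changes of 0.46 (SE 0.11) and 0.46 (SE 0.13), and both were called by DESeq2 and limma-voom but not by edgeR (adjusted p = 0.0957 and 0.115). Psmd8, also of the lid, had the largest log2 fold change of the regulatory particle (0.48, SE 0.18), but its groups overlapped, at 217 to 313 CPM in KO and 148 to 229 CPM in WT. Its highest library was KO replicate 4 and its lowest WT replicate 4. Without both of these its log2 fold change was 0.29. Psmd5, a chaperone of base assembly that is absent from the finished particle, was at 24.99, 29.2, 27.4 and 25.8 CPM in KO replicates 1 to 4, against 25.4, 24.5, 28.5 and 31.6 CPM in WT replicates 1 to 4. Of the genes counted with the regulatory particle it was the only one with a negative log2 fold change (-0.035, SE 0.11), and its groups overlapped.

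The activators cap the core particle in place of the regulatory particle, and their log2 fold changes had both signs. None below 0 had an unadjusted edgeR p under 0.05 in the main test. Psme1 and Psme2, the interferon-inducible subunits of PA28, lie side by side on chromosome 14. Psme1 was at 71.4, 69.96, 72.4 and 50.8 CPM in KO replicates 1 to 4, against 42.8, 44.5, 44.7 and 62.9 CPM in WT replicates 1 to 4. Psme2 was at 71.4, 51.3, 60.3 and 47.8 CPM in KO replicates 1 to 4, against 35.1, 44.5, 40.7 and 54.5 CPM in WT replicates 1 to 4. As for the immunoproteasome, the highest WT library of both genes was replicate 4 and the lowest KO library replicate 4. Their log2 fold changes were 0.44 (SE 0.16) and 0.40 (SE 0.17), with edgeR adjusted p of 0.194 and 0.242. Without both replicates 4 they were 0.70 for Psme1 and 0.61 for Psme2 (edgeR adjusted p = 0.0246 and 0.0542). With the muscle score as a covariate they were 0.67 and 0.61, and both genes were called (edgeR adjusted p = 0.00949 and 0.0168). Psme2b is a near copy of Psme2 at 3.66 ± 0.618 CPM in KO and 3.56 ± 0.877 CPM in WT (SD, n = 4 each), and 69.3% of its stretches of 50 bases also occur in transcripts of other genes, so reads of the pair may have been split.

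Psme3, the nuclear PA28 subunit that does not need ubiquitin, was at 74.7, 97.3, 85.2 and 89.0 CPM in KO replicates 1 to 4, against 88.7, 83.8, 102 and 126 CPM in WT replicates 1 to 4. The fitted log2 difference was -0.21 (SE 0.15, adjusted p = 0.506 in edgeR), with the highest level in WT replicate 4. Psme4 encodes PA200, an activator linked to histone degradation. It was at 204, 233, 256 and 377 CPM in KO replicates 1 to 4, against 343, 292, 304 and 171 CPM in WT replicates 1 to 4. KO replicate 4 was the highest and WT replicate 4 the lowest library, unlike for Psme1, and the log2 fold change was -0.053 (SE 0.25, adjusted p = 0.940 in edgeR). With the muscle score as a covariate Psme4 was called lower in KO (log2 fold change -0.43, edgeR adjusted p = 0.0282, 3.74% of all genes called lower), while the other 14 members called in that fit were higher (4.98% of all genes called higher).

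The log2 fold changes of the inhibitor and the assembly chaperones also had both signs, and none below 0 had an unadjusted edgeR p under 0.05. Psmf1, which encodes PI31, an inhibitor of the core particle in the test tube, was at 19.6, 29.4, 23.9 and 24.0 CPM in KO replicates 1 to 4, against 25.03, 23.4, 27.9 and 38.9 CPM in WT replicates 1 to 4. Its log2 fold change of -0.25 (SE 0.18, adjusted p = 0.503 in edgeR) was the lowest of all members, and it rested on WT replicate 4, being -0.075 without that library. Psmg1 and Psmg2, which pair to assemble the alpha ring, had 16.6 ± 2.12 CPM in KO and 13.1 ± 0.534 CPM in WT for Psmg1 and 25.7 ± 3.80 CPM in KO and 19.2 ± 1.29 CPM in WT for Psmg2 (SD, n = 4 each). With Psmg3 (13.2 ± 2.51 CPM in KO and 10.01 ± 0.468 CPM in WT) they showed no overlap, the KO libraries being the higher ones, and had log2 fold changes of 0.34, 0.42 and 0.40 and edgeR adjusted p of 0.184, 0.132 and 0.197. Psmg4, the partner of Psmg3, had 6.35 ± 1.51 CPM in KO and 6.49 ± 0.480 CPM in WT with a log2 fold change of -0.033 (SE 0.19). Psmc3ip had 4.68 ± 0.539 CPM in KO and 5.22 ± 1.59 CPM in WT and a log2 fold change of -0.16 (SE 0.22).

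Fold changes in these data moved with exon length over all genes. The median log2 fold change was 0.20 among the 2306 genes tested with over 1000 and up to 2000 merged exonic bases, and -0.14 among the 4627 with over 6000. In the first range 21.9% of all genes were higher in KO at an unadjusted p under 0.05, against 9 of 13 members. In the range over 3000 and up to 4000 bases it was 8.70% of all genes, against 7 of 9 members. Over 2000 and up to 3000 bases it was 13.1% against 9 of 14 members, and over 4000 and up to 6000 bases 5.97% against 2 of 4. Over 6000 bases 2.55% of all genes and 0 of 6 members were higher. Up to 1000 bases 17.2% of all genes and 1 of 3 members were higher, and the members' median of 0.039 lay below the 0.20 of all genes. Of the 49 members, 44 lay above the median of all genes in their length range, and the exceptions were Psmc3ip, Psme2b, Psme3, Psmf1 and Psmg4. Psmb1, with 4595 exonic bases, lay furthest above it, by 0.56 on the log2 scale. After the trend with length and GC content had been removed from each library, the members' median log2 fold change was 0.25, 44 members were above 0 (50% of all genes), and 21 were higher and 0 lower at an unadjusted p under 0.05, against 7.86 and 6.25% of all genes. The core median was then 0.30 and that of the regulatory particle 0.23.

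**Figure D5:**
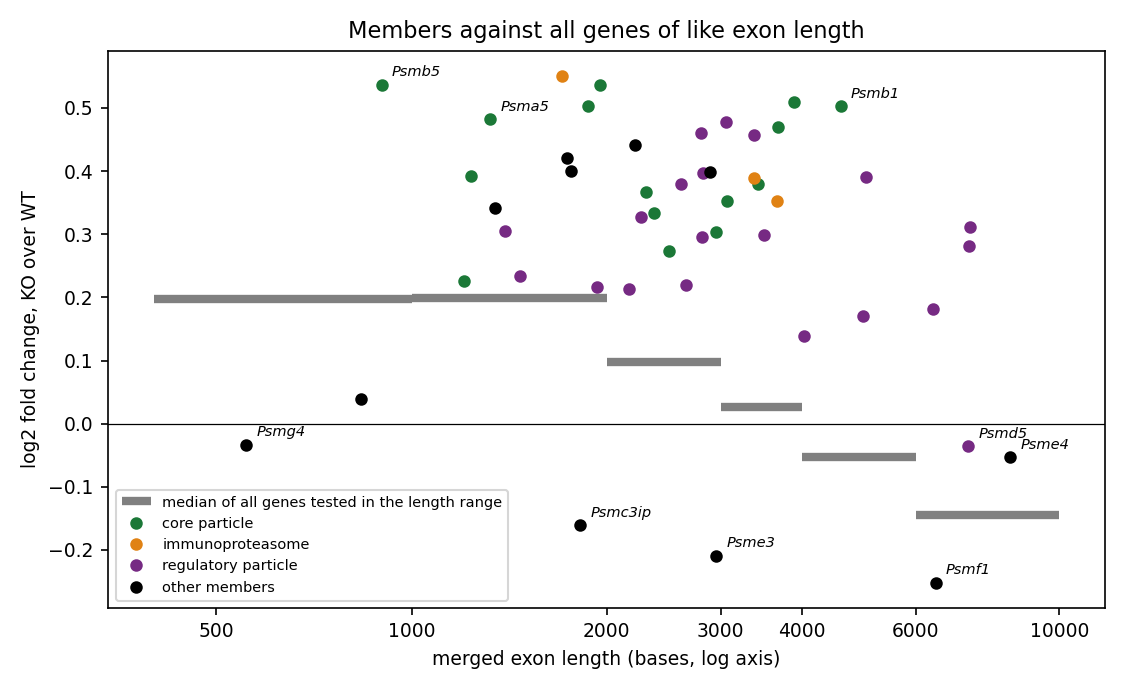
Log2 fold change of KO over WT (vertical) against merged exon length in bases (horizontal, log axis) for the 49 members tested, coloured by particle. Grey bars are the medians of all genes tested in each length range, from 0.20 at up to 2000 bases to -0.14 over 6000 bases (the last bar has no upper limit), and 44 members lie above their bar.

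Many members have processed pseudogenes or overlapping neighbours with which reads can be shared. Stretches of 50 bases of the principal transcripts were looked up in all other GENCODE transcripts. For 16 of the 49 members over 10% of them occurred elsewhere, among them Psma5 (55.4%), Psmb5 (57.1%), Psmb3 (55.8%) and Psme2 (59.3%), so the counts of these genes are uncertain. Psmb9 shared 12.5% with Tap1, which overlaps it on the other strand, and Psmb7 28.1% with Nek6. Psmb4, Psmc2, Psmc3, Psmd6 and Psmb10 shared none. Of the 33 members at or below 10%, 18 were higher in KO at an unadjusted edgeR p under 0.05, against 9.59% of all genes. The share among other genes at or below 10% was not computed.

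Genes that work with the proteasome were read from lists beside the members, and edgeR called 0 of them over all genes. Of the 7 other proteasome components measured, 2 were higher at an unadjusted edgeR p under 0.05, where 9.59% of all genes were. The list's median log2 fold change was 0.11, and that of Adrm1 was 0.051 (SE 0.15). Sem1, a small lid subunit, had 190.5 ± 46.4 CPM in KO and 108 ± 13.6 CPM in WT (SD, n = 4 each), with a log2 fold change of 0.82 (SE 0.19, adjusted p = 0.0841 in edgeR). Pomp, which matures the core particle, had 112 ± 12.9 CPM in KO and 83.4 ± 3.93 CPM in WT with a log2 fold change of 0.42 (SE 0.12). Both genes were higher in every KO library, and DESeq2 called both.

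Of 12 genes of ubiquitin and its conjugation, 2 were higher at an unadjusted edgeR p under 0.05, where 9.59% of all genes were, and nothing is read from so small a count. The list's median log2 fold change was 0.16. Rps27a, a ubiquitin and ribosomal fusion gene, had 307 ± 75.0 CPM in KO and 213 ± 39.5 CPM in WT (SD, n = 4 each), with overlapping groups and a log2 fold change of 0.53 (adjusted p = 0.203 in edgeR). Among 12 genes of substrate delivery 1 was higher, Faf1 (log2 fold change 0.42), and the list's median was 0.14. The 14 regulators of proteasome genes had a median of 0.016, with 0 higher and 1 lower, the NF-Y subunit gene Nfya, at 30.6 ± 4.82 CPM in KO and 43.1 ± 9.92 CPM in WT (log2 fold change -0.49, edgeR adjusted p = 0.180). The 12 antigen processing partners had a median of 0.069, and the 10 muscle atrophy ligases and partners one of 0.081, with 0 genes in either direction. The peptide transporter gene Tap2 had a log2 fold change of 0.26, and the chaperone-linked ligase gene Stub1 one of 0.19 with no overlap of the groups.

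The 16 muscle markers had a median log2 fold change of 0.34, with 2 higher and 0 lower at an unadjusted edgeR p under 0.05, and the 13 osteoblast and osteocyte markers one of -0.26, with 0 higher and 2 lower. The 8 erythroid markers measured had a median of -0.31 (0 higher, 1 lower) and the 8 osteoclast markers one of 0.17 (0 in either direction). Of all genes 9.59% were higher and 8.59% lower at that p. With the muscle score as a covariate the members' median log2 fold change was 0.32, and edgeR called 15 members, 14 of them higher. In that fit 4.98% of all genes were called higher and 3.74% lower. Of the muscle markers 0 were at 0 in all libraries, and their part in the members' levels was not tested otherwise. Without KO replicate 4 and WT replicate 4 the members' median was 0.31 and 44 of 49 were positive. The 5 members then called were Psma5, Psmb4, Psmb9, Psmb10 and Psme1, where 1.61% of all genes were called higher. Psma5 and Psmb4 were the members called by DESeq2, by limma-voom, with either covariate and without both replicates 4 alike. The share of all genes called in all of these fits was not computed. Psma5 shares 55.4% of its stretches of 50 bases with other genes, so its counts are uncertain. Leaving out 1 library at a time gave 18 to 30 members higher at an unadjusted p under 0.05, with the lowest count without WT replicate 1.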

How the data were processed

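Bulk RNA sequencing counts of femoral shaft bone from 4 KO and 4 WT mice were analysed. The authors deposited a single matrix of unnormalized counts with 49315 gene rows, with bcl2fastq 2.17, STAR 2.5.2b, featureCounts of Subread 1.5.2 and build mm10 named, per the submitters' processing notes. Annotation release, strand and other settings were not given in the sources used here, so overlapping genes on opposite strands could not be told apart. Symbols, positions and exon lengths came from GENCODE M21 on GRCm38 (49056 rows matched), and promoters from RefSeq.

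edgeR 4.0.16 (quasi-likelihood test, TMM, filterByExpr, group as the only term, Benjamini-Hochberg adjustment over 17450 genes) was the main test. DESeq2 1.42.0 and limma-voom 3.58.1 in R 4.3.3 were alternatives, as were other scalings and filters, a replicate block, covariates, loess offsets (span 0.3) for length and GC content, and left-out libraries. Log2 CPM used a prior count of 2, and count ratios added 0.5 to each count. With 4 mice per group the smallest exact permutation p is 0.0286. Library totals of 30087749 to 36553713 set the counting precision. Chi-square per degree of freedom was at least 39.4 for every pair within a group, and no 2 libraries agreed within sampling noise. When tested on simulated data, DESeq2 made false calls well above its nominal rate at the same threshold, while edgeR and limma-voom stayed close to it. The simulation drew on edgeR's own dispersion estimates. Each test missed most genes given its smallest change, so changes as small as the members' would mostly go uncalled.

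Members and gene lists were chosen with earlier results of these data known. The named members are the catalytic subunits, the activators, in each role the 3 smallest p and the extreme fold changes, and those below the filter, and in other lists up to 3 genes with the smallest p. Beyond this rule genes are named only by count, overlap, role or motif, after their values were seen. No p over a set of members was computed. The values of 1 listed gene are not reported here.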

Additional observations from a re-analysis of the deposited data

Results flagged for a closer look

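Of 74 groups of 4 libraries examined, 5 held a library far from the other 3, and chance gives about 1 in 20 such groups. Psme1 was at 50.8 CPM in KO replicate 4, below the other KO libraries (69.96 to 72.4 CPM), and at 62.9 CPM in WT replicate 4, above the other WT libraries (42.8 to 44.7 CPM). Psmg3 was at 16.9 CPM in KO replicate 1, above the other KO libraries (11.6 to 12.4 CPM). Psmc2 was at 119.5 CPM in KO replicate 2, below the other KO libraries (140.2 to 144 CPM). Psma5 was at 50.3 CPM in WT replicate 3, above the other WT libraries (44.4 to 45.4 CPM), yet below every KO library.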

How the results depend on the processing

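The count of members called in edgeR was 0 with other size factors, other low-count filters, the length and GC trend removed or any 1 library left out. It was 12 with DESeq2 (3.9% of the genes DESeq2 tested were called higher) and 11 with limma-voom (2.41% of all genes called higher). With the muscle score as a covariate it was 15, of which 14 were higher (4.98% of all genes called higher and 3.74% lower). With the marrow score it was 11 (2.79% called higher), and without KO replicate 4 and WT replicate 4 it was 5 (1.61% called higher). Members higher at an unadjusted p under 0.05 numbered 28 in the main test (9.59% of all genes), 14 on library totals without TMM (4.82% of all genes), where the median of all genes shifted by -0.10, and 18 to 30 with 1 library left out. Members lower at an unadjusted p under 0.05 numbered 1 (Psme4) with the muscle score or without both replicates 4, and 0 with any 1 library left out. The core median log2 fold change ranged from 0.38 to 0.48 and the regulatory median from 0.24 to 0.35 with 1 library left out. The regulatory median was 0.19 without TMM and 0.18 without both replicates 4. The labels do not say whether replicate numbers pair the mice. Same-numbered libraries deviated with correlations of -0.57 to -0.17, which cannot decide it. With the replicate number as a block 0 members were called and 12 were higher at an unadjusted p under 0.05 (5.05% of all genes). A sign-flip test of the ratios under that pairing cannot reach a p under 0.05 with so few pairs, so its lack of calls decides nothing.

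With 1 library left out, the log2 difference of the Psmb8 to Psmb5 ratio ranged from -0.31 to 0.12, that of Psmb9 to Psmb6 from -0.34 to 0.17 and that of Psmb10 to Psmb7 from -0.0079 to 0.40. Without both replicates 4 the first 2 became positive, at 0.34 and 0.41 (each adjusted exact permutation p = 0.2). With so few libraries that test cannot reach a p under 0.05, so its lack of calls decides nothing. Some log2 fold changes turned. Psmd2, at 0.14 in the main test, was at -0.055 without both replicates 4 and -0.042 with the muscle score. Psmd5 was at 0.069 with limma-voom, 0.036 with the muscle score, 0.033 with the trend removed and 0.056 without both replicates 4. Psmc3ip was at 0.020 with the muscle score and 0.0087 without both replicates 4. Psme2b was at -0.058 without TMM and -0.19 with the trend removed, where Psme4 was at 0.040. With 1 library left out, Psme4 ranged from -0.26 to 0.065, Psme2b from -0.12 to 0.13, Psmg4 from -0.16 to 0.073, Psmd5 from -0.087 to 0.034 and Psmc3ip from -0.28 to 0.049. The causes of these shifts were not tested.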
